A study of Mus musculus with 18 samples.

Results

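The chemokine system of mouse tibialis anterior (TA) muscle was followed across 5 models of cancer cachexia, the loss of muscle mass that accompanies a tumour. Members were all protein-coding genes whose symbol is Ccl, Cxcl, Cx3cl, Xcl, Ccr, Cxcr, Cx3cr, Xcr or Ackr followed by a number. The GENCODE M21 annotation held 60 such genes, of which 59 of the 21816 protein-coding genes in the deposited libraries were members and 1, Ccl27b, had no transcript there. Of the 59 members, 36 encode ligands, 19 receptors and 4 atypical receptors. After the filter on low counts 33 could be tested, namely 23 ligands, 6 receptors and all 4 atypical receptors. The other 26 members were too low to judge.

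The 18 libraries came from 9 groups of 2, and the labels name each a biological replicate. Mice that received LLC cells, a lung carcinoma line, in muscle were compared with mice given PBS, all C57BL/6. Mice with KPC (50000 cells) or KPCML1 (1000 cells) placed orthotopically shared 1 pair of Matrigel controls, also C57BL/6, so these comparisons are not independent. Mice of strain CD2F1 with C26 cells, a colon carcinoma line, under the skin were compared with PBS-injected mice. In the genetic KPP model, on a C57BL/6 background, tamoxifen induces the tumour, and the controls were mice of the model with no tumour. Muscles were taken at endpoint. The labels do not give age, sex, the alleles of KPP, whether its controls received tamoxifen, or which muscle received the LLC cells. Strain differs between C26 and the other experiments, so strain and model cannot be told apart there.

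Chemokines are small secreted proteins that guide leukocytes. They bind receptors that signal through G proteins, and stromal cells and endothelium present them on heparan sulfate. Atypical receptors bind chemokines without that signalling and transport or remove them. In muscle, chemokines from resident cells and infiltrating leukocytes are known to recruit neutrophils and monocytes after damage.

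Libraries held 22546541 to 36673780 fragments (estimated counts summed over all transcripts). Values per library are given as CPM, counts scaled to a normalised library size, with replicate 1 first. A difference is a tumour group's log2 level minus its control's, in 1 edgeR quasi-likelihood model of all 18 libraries (n = 2 libraries per group). The ± beside it is an approximate standard error, the size of the difference divided by the square root of its F statistic. It restates the test, is not a separate measure of spread, and is unreliable at low counts. A gene is called where its p, adjusted by Benjamini and Hochberg over the 16089 genes tested, is under 0.05. The myofibre markers were present in every library, at a sum of 69959 CPM in C26 tumour replicate 2 and of 113422 CPM or more in the others. Replicates correlated over genes from 0.959 in the KPP controls to 0.983, and genes are not independent replicates. KPP control replicate 1 stood above its partner for Ackr4, Ccl21a and Ccl8, KPP tumour replicate 2 above its partner for Ccl2, Ccl7 and Ackr1, and LLC control replicate 1 above its partner for Ccl2 and Ccl22. C26 tumour replicate 2 stood below its partner in the sums of myofibre markers (134153 CPM in replicate 1) and fibro-adipogenic markers (218 CPM against 415). Results that rest on them are given with and without them. In bulk muscle, fewer cells of a type and less RNA per cell cannot be told apart.

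The members differed widely in level. Length-scaled levels (TPM) over the 8 control libraries were highest for Cxcl14 (median 28.7, range 16.6 to 46.6), Cxcl12 (18.2, range 15.6 to 24.2), Ccl27a (17.2, range 12.7 to 38.7) and Ccl11 (16.0, range 9.07 to 19.3). The ranges of these 4 ligands overlapped, and all lay above that of Ackr3 (median 4.21 TPM, highest 6.25). Ccl25 (4.13 TPM), Ccl21a (4.04 TPM) and Ccl6 (3.62 TPM) followed, with ranges that overlapped that of Ackr3. The highest signalling receptor was Cxcr4 (median 1.62 TPM, range 0.786 to 2.31). In all, 10 of 59 members had a control median of at least 1 TPM. Cxcl13 (median 0.134 TPM) and Cxcl10 (0.0706 TPM) were near the bottom of the tested genes in control muscle.

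The 26 members too low to judge had 0 to 62 fragments over all 18 libraries together. Ccl1, Ccl20, Ccl21b and Ccl26 had 0 fragments. Receptors in this set included Cxcr3, the receptor of Cxcl9 and Cxcl10 (22 fragments), Cxcr5, the receptor of Cxcl13 (15 fragments), Ccr7, the receptor of Ccl19 and Ccl21a (49 fragments), Cxcr6, the receptor of Cxcl16 (24 fragments), Ccr3, the receptor of Ccl11 and Ccl24 (6 fragments), and Xcr1 (62 fragments). The other receptors here were Ccr4 (6 fragments), Ccr6 (3), Ccr8 (2), Ccr9 (8), Ccr10 (12), Ccr1l1 (2) and Cxcr1 (1). Ligands here were Ccl5 (52 fragments), Cxcl17 (38), Ccl17 (26), Cxcl5 (23), Xcl1 (13), Ccl3 (11), Cxcl3 (4), Ccl4 (3) and Cxcl15 (1). Some of these counts came largely from a single library, with 20 of the 38 Cxcl17 fragments in KPP tumour replicate 2 and 14 of the 26 Ccl17 fragments in LLC control replicate 1. At this depth no statement on these genes was possible in any model. The least abundant tested member was Ccl22, with 43 fragments, so the filter did not follow the total alone.

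**Figure D1:**
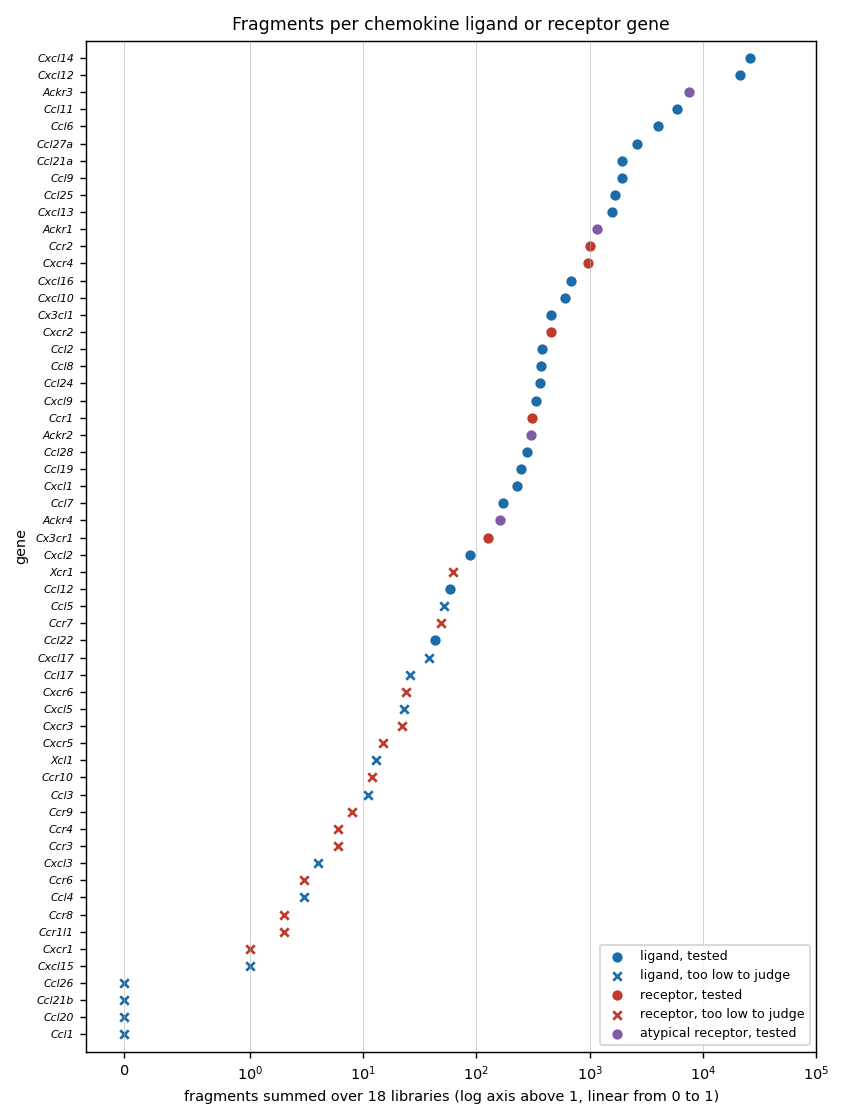
Fragments per member gene summed over the 18 libraries (log axis above 1, linear from 0 to 1), coloured by role, with a circle for members that passed the filter on low counts and a cross for the others. The 26 members that did not pass had 62 fragments or fewer, and Cxcl14 was the highest of the tested members with 25864.

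Across the 5 comparisons, 21 of the 33 tested members were called at least once and 12 were never called. In LLC 3 members were called, 2 higher and 1 lower (9.09% of 33, against 13.6% of all genes tested). In KPCML1 there were 4, all higher (12.1%, against 8.53%). In KPC 10 were called, 5 higher and 5 lower (30.3%, against 29.1%). C26 had 9, with 5 higher and 4 lower (27.3%, against 21.3%), and KPP had 15, with 7 higher and 8 lower (45.5%, against 36.7%). The members' shares were thus near the background in KPC and below it in LLC. By direction, the shares of all genes called higher and lower were 7.39% and 6.24% in LLC, 4.15% and 4.38% in KPCML1, 15.3% and 13.7% in KPC, 11.5% and 9.8% in C26, and 17.4% and 19.3% in KPP. The median log2 fold change of the members was -0.29 in LLC, 0.15 in KPCML1, 0.03 in KPC, 0.22 in C26 and 0.01 in KPP, beside medians of all genes of -0.00, 0.02, -0.01, 0.04 and -0.04. Members that were called moved in both directions in every model except KPCML1. The counts depended on single libraries: they were 5 in KPC without KPC tumour replicate 2, and in KPP 7 without control replicate 1 and 3 without tumour replicate 2. Leaving out each library in turn gave 1 to 2 called members in LLC, 1 to 2 in KPCML1 and 2 to 5 in C26.

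**Figure D2:**
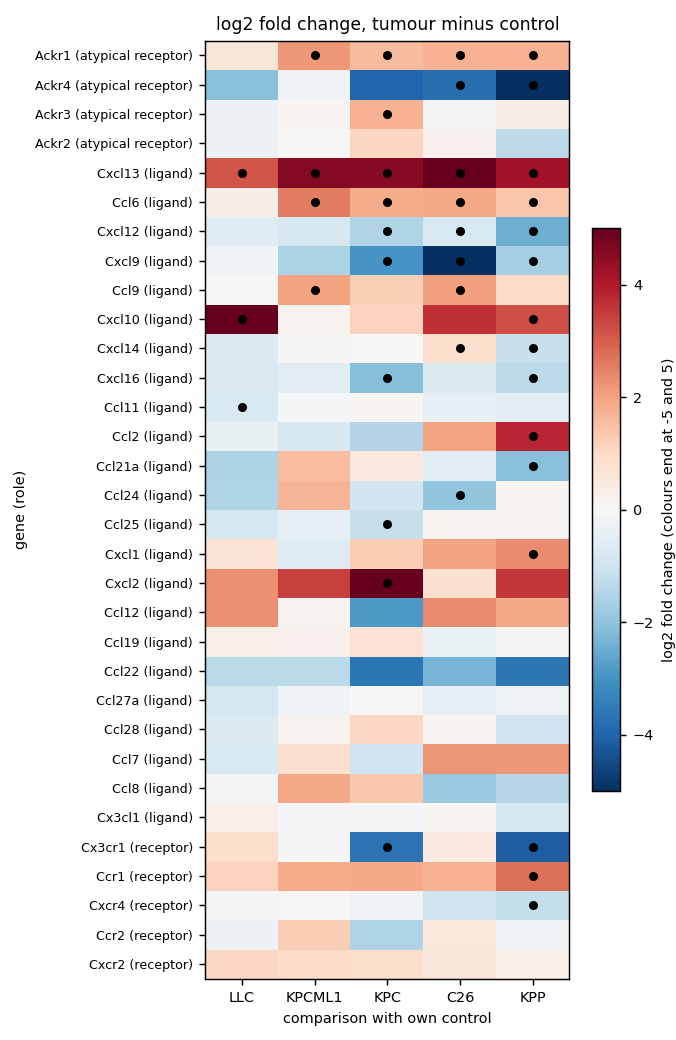
Log2 fold change (tumour minus control) of tested members in the 5 comparisons, with a mark where the adjusted p was under 0.05. Cxcl13 is higher and marked in all 5 columns, and Cxcl12 is lower in all 5 and marked in KPC, C26 and KPP.

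Cxcl13, the ligand of Cxcr5 that attracts B cells to follicles, was the member called higher in each of the 5 comparisons. The gene lies on the plus strand of chromosome 5 (95956951 to 95961068, build mm10). In LLC muscle its CPM was 0.318 and 0.446, against 0.0425 and 0.0376 in the PBS controls. In the orthotopic models it was 2.43 and 4.97 in KPCML1 and 3.81 and 3.41 in KPC, against 0.162 and 0.136 in the shared Matrigel controls. Every tumour library lay above every control library of its own experiment. C26 muscle held the highest levels, 9.94 and 15.2 CPM against 0.0721 and 0.127, and KPP muscle held 8.17 and 4.12 CPM against 0.389 and 0.25. The log2 fold changes were 3.13 ± 0.79 in LLC (adjusted p = 0.019), 4.58 ± 0.51 in KPCML1 (adjusted p = 0.000423) and 4.55 ± 0.51 in KPC (adjusted p = 0.000109). They were 6.90 ± 0.55 in C26 (adjusted p = 1.2e-05) and 4.21 ± 0.47 in KPP (adjusted p = 7.09e-05). The LLC controls held 2 fragments of the gene and the LLC tumour libraries 20, a ratio of 9.63 (exact 95% interval 2.34 to 85.01, counting error only). Except in LLC the call held with each of the 4 libraries of its comparison left out. In LLC it ended without LLC control replicate 1 or 2 or LLC tumour replicate 2 (adjusted p 0.121 to 0.128).

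Of 5 markers of B cells, which Cxcl13 is known to attract, 1 could be tested, and it was called in no comparison. Their summed level was 0.0303 to 1.15 CPM in tumour libraries and 0.396 to 1.10 CPM in controls. In C26 muscle, where Cxcl13 was highest, the sum was 0.349 and 0.233 CPM against 0.396 and 0.414.

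The 250 bases before the start are shown for the letters they hold (RefSeq, GRCm38.p6, 5′ to 3′ on the gene's strand). Cxcl13, Ccl6, Ackr1 and Cxcl12 are the members called in most comparisons, with Cxcl12 placed before Cxcl9, called as often, for its smaller adjusted p. Cxcl10 and Cxcl9 are shown as neighbouring genes, of which Cxcl10 was called only higher and Cxcl9 only lower. KPP was the only comparison in which both genes were called, and the difference between the genes was not tested. Capitals mark matches, on either strand, to 5 motifs: GGG and CC with 5 free bases between (NF-kB), GAAA and GAAA with 2 free bases between (interferon-stimulated response element), TTC and GAA with 3 (STAT), TTGC and AA with 2 (C/EBP), and TGA and TCA with 1 (AP-1). Where matches overlap, the run of capitals covers both.
Cxcl13 (chr5:95956689-95956938, plus strand): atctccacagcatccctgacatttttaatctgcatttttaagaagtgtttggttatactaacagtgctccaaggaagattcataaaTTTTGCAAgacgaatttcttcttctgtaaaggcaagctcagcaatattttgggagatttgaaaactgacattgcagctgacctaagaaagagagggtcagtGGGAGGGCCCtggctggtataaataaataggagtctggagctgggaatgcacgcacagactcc
Ccl6 (chr11:83593088-83593337, minus strand): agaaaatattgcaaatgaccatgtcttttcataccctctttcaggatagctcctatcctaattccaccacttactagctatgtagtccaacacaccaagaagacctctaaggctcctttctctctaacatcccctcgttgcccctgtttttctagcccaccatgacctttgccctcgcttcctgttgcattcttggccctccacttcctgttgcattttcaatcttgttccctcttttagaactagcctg
Ackr1 (chr1:173333504-173333753, minus strand): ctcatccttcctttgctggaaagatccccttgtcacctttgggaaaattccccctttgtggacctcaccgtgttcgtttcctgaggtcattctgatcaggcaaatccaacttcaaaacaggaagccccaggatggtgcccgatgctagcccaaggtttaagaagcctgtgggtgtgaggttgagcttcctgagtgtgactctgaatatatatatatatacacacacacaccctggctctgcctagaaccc
Cxcl12 (chr6:117168285-117168534, plus strand): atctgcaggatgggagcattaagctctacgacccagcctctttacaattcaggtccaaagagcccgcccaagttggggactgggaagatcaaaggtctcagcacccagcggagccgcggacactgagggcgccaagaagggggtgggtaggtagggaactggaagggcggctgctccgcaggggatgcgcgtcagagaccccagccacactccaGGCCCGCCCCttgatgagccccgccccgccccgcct
Cxcl10 (chr5:92348890-92349139, minus strand): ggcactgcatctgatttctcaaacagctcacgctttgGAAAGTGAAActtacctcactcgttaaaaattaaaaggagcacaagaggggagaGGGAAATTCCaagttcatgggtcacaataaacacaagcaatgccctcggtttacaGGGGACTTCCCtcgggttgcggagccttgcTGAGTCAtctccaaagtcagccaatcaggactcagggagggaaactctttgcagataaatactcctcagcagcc
Cxcl9 (chr5:92328080-92328329, minus strand): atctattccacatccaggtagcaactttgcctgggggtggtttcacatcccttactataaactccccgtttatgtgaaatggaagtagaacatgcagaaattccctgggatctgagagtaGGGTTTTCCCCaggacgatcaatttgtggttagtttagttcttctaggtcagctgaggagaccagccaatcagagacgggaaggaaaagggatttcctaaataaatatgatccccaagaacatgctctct
In Cxcl13 the capitals are a C/EBP match (TTTTGCAA) 164 to 157 bases before the start and an NF-kB match (GGGAGGGCCC) 63 to 54 bases before it. In Cxcl10 they are an interferon-stimulated response element (GAAAGTGAAA, 213 to 204 bases before the start), NF-kB matches at 159 to 150 bases and, overlapping each other, at 104 to 94 bases, and an AP-1 match (TGAGTCA) 74 to 68 bases before it. Cxcl9 holds 2 overlapping NF-kB matches at 130 to 120 bases, and Cxcl12 holds 1 (GGCCCGCCCC) at 36 to 27 bases. The windows of Ccl6 and Ackr1 hold none of the 5 motifs. That of Ackr1 precedes a RefSeq start inside the GENCODE gene (173331886 to 173333750) and lies almost wholly within it. The bases before the GENCODE start of Ackr1 were therefore largely not searched. Promoter entries were found for 45 members, some with several starts (49 promoters). An NF-kB match was present in 27 of these 49 (55.1%) and in 45.8% of all 32851 promoters of the same length. The interferon-stimulated response element was present in 3 of 49 (6.12%), against 2.98% of all promoters, so the NF-kB letters alone are common. A match describes letters, not a bound site.

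Cxcl10 and Cxcl9 are both ligands of Cxcr3, the receptor of activated T and NK cells, and are textbook targets of interferon gamma. Cxcl10 (chromosome 5, 92346638 to 92348889, minus strand) rose in LLC and KPP, and Cxcl9 (chromosome 5, 92321347 to 92328079, minus strand), which lies 18559 bases away, fell in KPC, C26 and KPP. In LLC muscle Cxcl10 was at 7.64 and 8.62 CPM, against 0.127 and 0.0376 in controls, a log2 fold change of 6.58 ± 1.11 (adjusted p = 0.0021) whose call held whichever of the 4 libraries was left out. In KPP muscle it was at 0.826 and 2.54 CPM against 0.283 and 0.0499, a log2 fold change of 3.21 ± 0.99 (adjusted p = 0.0214). That call ended without KPP control replicate 2 or KPP tumour replicate 2 (adjusted p 0.105 to 0.153). In C26 muscle Cxcl10 was at 0.286 and 0.667 CPM against 0.0721 and 0, and did not pass the test (3.64 ± 1.34, adjusted p = 0.0689). There the controls held 2 fragments and the tumour libraries 29, a ratio of 13.9 (exact 95% interval 3.53 to 121, counting error only). The orthotopic models held 0.234 and 0 CPM (KPCML1) and 0.305 and 0.213 CPM (KPC), against 0.227 and 0 in their controls. The highest Cxcl10 levels were thus in LLC, but no pair of models was called for its response. The LLC response was higher than that of KPC by 5.44 ± 1.75 (adjusted p = 0.12) and of KPCML1 by 6.41 ± 1.82 (adjusted p = 0.21). It was higher than that of KPP by 3.37 ± 1.60 (adjusted p = 0.2) and of C26 by 2.95 ± 2.42 (adjusted p = 0.68). With 2 libraries a group, the lack of a call does not show equal responses. Cxcl10 lies within Art3 on the opposite strand, which held 131900 fragments, and how strand was set in the quantification is not known. Art3 moved the other way in LLC (-0.85 ± 0.21, adjusted p = 0.0171) and the same way in KPP (1.10 ± 0.21, adjusted p = 0.00141).

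Cxcl9 was at 0.183 and 0.107 CPM in KPC muscle against 0.875 and 1.47 in its controls, a log2 fold change of -2.96 ± 0.62 (adjusted p = 0.00429). In C26 muscle no fragment was found in either tumour library, against 0.468 and 0.127 CPM in controls, which held 17 fragments. With a floor of 3 counts over the group the level was at least 5.89-fold lower there (adjusted p = 0.00471). Both calls held with each of the 4 libraries left out, but that of C26 ended when the C26 libraries were fitted alone (adjusted p = 0.0693). In KPP muscle Cxcl9 was at 0.495 and 0.394 CPM against 1.7 and 1.1 (-1.66 ± 0.56, adjusted p = 0.0324). That call is not firm: with length-scaled counts the difference turned to 0.22 (adjusted p = 0.857), and it ended without KPP control replicate 1 or either KPP tumour library (adjusted p 0.077 to 0.186). LLC muscle held 1.27 and 0.966 CPM against 1.49 and 1.13, a difference of -0.22 ± 0.52 (adjusted p = 0.836). In KPCML1 it was -1.59 ± 0.56 (adjusted p = 0.0961). Of 8 T cell markers, 1 passed the filter, and it was called in no comparison. Their sum was 0.165 and 0.151 CPM in KPP tumours, with Cd3e, Cd3g, Cd4 and Lck at 0, against 1.56 and 0.499 in KPP controls. In LLC it was 0.636 and 0.632 CPM against 1.15 and 0.451.

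**Figure D3:**
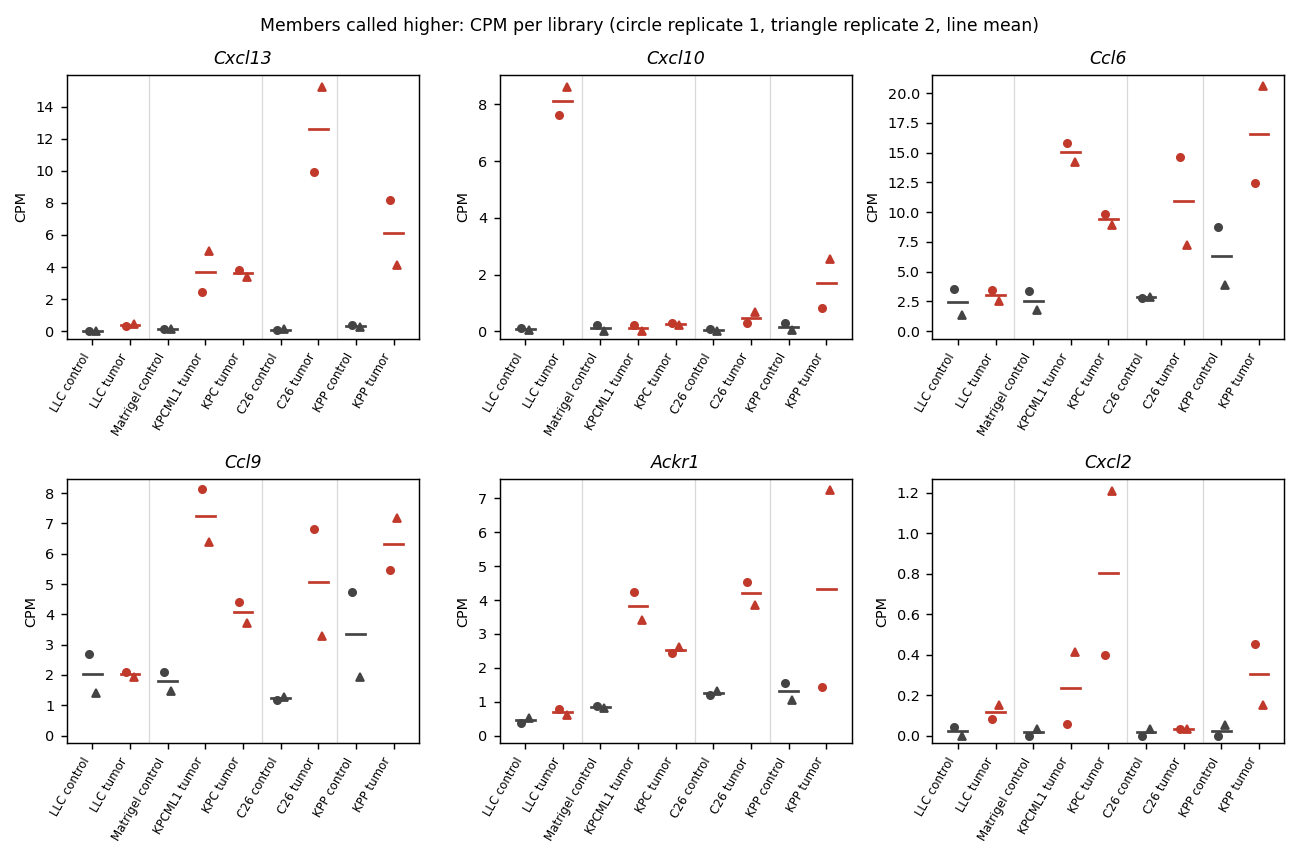
CPM per library of members called higher, by group, with a circle for replicate 1, a triangle for replicate 2 and a line for the mean of 2. Cxcl13 is highest in the C26 tumour libraries (9.94 and 15.2) and Cxcl10 in the LLC tumour libraries (7.64 and 8.62).

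Ccl6 and Ccl9, ligands of Ccr1 made by macrophages and other myeloid cells, are neighbours on the minus strand of chromosome 11 (83587882 to 83593087 and 83572919 to 83578636, 9246 bases apart). Ccl6 rose in 4 of the 5 models and Ccl9 in 2. Ccl6 was at 15.8 and 14.2 CPM in KPCML1 muscle and 9.84 and 8.95 in KPC, against 3.37 and 1.77 in their controls, log2 fold changes of 2.54 ± 0.49 (adjusted p = 0.0079) and 1.86 ± 0.48 (adjusted p = 0.0114). C26 muscle held 14.7 and 7.27 CPM against 2.81 and 2.9 (1.94 ± 0.48, adjusted p = 0.0118). In KPP it was 12.5 and 20.6 CPM against 8.77 and 3.85 (1.38 ± 0.47, adjusted p = 0.032). The groups of these 4 comparisons did not overlap, while LLC muscle, with 3.5 and 2.56 CPM, overlapped its controls at 3.57 and 1.39 (0.30 ± 0.50, adjusted p = 0.756). Each of the 4 calls depended on single libraries. That of KPCML1 ended without Matrigel control replicate 2 or KPCML1 tumour replicate 2 (adjusted p 0.0522 to 0.110), and that of KPC without Matrigel control replicate 2 (adjusted p = 0.111). In C26 it ended without either control or tumour replicate 1 (adjusted p 0.0806 to 0.0950), and in KPP without control replicate 2 or tumour replicate 2 (adjusted p 0.166 to 0.193).

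Ccl9 was at 8.12 and 6.38 CPM in KPCML1 against 2.11 and 1.47 (2.02 ± 0.44, adjusted p = 0.0138) and at 6.83 and 3.3 CPM in C26 against 1.19 and 1.27 (2.04 ± 0.45, adjusted p = 0.0062). The KPCML1 call ended with any 1 of its 4 libraries left out (adjusted p 0.0545 to 0.154). The C26 call ended without either control or tumour replicate 1 (adjusted p 0.0506 to 0.0567), and with length-scaled counts the C26 difference was 0.22 (adjusted p = 0.841). In KPC, with 4.42 and 3.73 CPM, the difference of 1.19 ± 0.43 did not pass the test (adjusted p = 0.0535).

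Macrophage markers, 10 genes that were all tested, were called higher for 5 in KPCML1, 2 in KPC and 2 in KPP, and for 0 in LLC and C26 by edgeR, where the unadjusted p of 0 and 3 genes was under 0.05 and DESeq2 called 0 in both. The counts of 2 in KPC and KPP are near the shares of all genes called higher there (15.3% and 17.4%), and that share was 4.15% in KPCML1. Their summed level was 159 and 142 CPM in KPCML1 against 75.5 and 45.7, and 112 and 76.7 CPM in C26 against 72.9 and 70.3. Neutrophil markers, of which 6 of 10 were tested, were called higher for 2 in LLC, 4 in KPCML1, 6 in KPC, 4 in C26 and 5 in KPP. The shares of all genes called higher were 7.39% in LLC and 11.5% in C26, with those of the other models given above. The neutrophil sum was 0.576 to 2.08 CPM over the 8 control libraries, with Ly6g, Ngp and Camp at 0 in all of them. In tumour libraries it was 7.36 and 6.02 CPM (LLC), 16.3 and 30.7 (KPCML1), 71.6 and 49.8 (KPC), 8.07 and 25.5 (C26), and 19.6 and 60.9 (KPP). The part of these cells in the ligand levels was not tested.

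The ligands of Cxcr2, which draw neutrophils, were scarce. Cxcl2 was called in KPC, at 0.396 and 1.21 CPM against 0 and 0.0341 in controls, where 47 fragments stood against 1, a ratio of 46.4 (exact 95% interval 7.93 to 1870, counting error only; adjusted p = 0.0101). Cxcl1 rose in KPP, from 0.212 and 0.4 CPM to 1.07 and 2.03 (2.37 ± 0.64, adjusted p = 0.0106). The Cxcl2 call ended without Matrigel control replicate 1 or KPC tumour replicate 2 (adjusted p 0.0742 to 0.0810), and the Cxcl1 call without KPP control replicate 1 or tumour replicate 2 (adjusted p 0.0704 to 0.100). In KPP, Cxcl2 stood at 0.454 and 0.151 CPM against 0 and 0.0499 and did not pass the test (adjusted p = 0.0705). Cxcl1 in C26 (0.349 and 0.5 CPM against 0.0721 and 0.127) had an adjusted p of 0.0643. Their receptor Cxcr2 was at 0.701 to 2.1 CPM in the KPC and KPP tumour libraries and was called in no comparison, with differences from 0.27 to 1.03.

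Ccl2, the main monocyte attractant and ligand of Ccr2, was called higher in KPP, at 0.702 and 6.03 CPM against 0.354 and 0.0999 (3.80 ± 1.14, adjusted p = 0.0185). KPP tumour replicate 2 carried most of it, and without that library the difference was 1.61 (adjusted p = 0.331). The call also ended without either KPP control library. Its relatives Ccl7, Ccl8 and Ccl12 were called in no comparison. Ccl7 was also highest in KPP tumour replicate 2 (2.33 CPM against 0.248 in replicate 1), and Ccl8 in KPP control replicate 1 (3.47 CPM against 0.2 in replicate 2). Ccl12 lay between 0 and 0.394 CPM in all libraries. In LLC, Ccl2 was at 1.36 CPM in control replicate 1 and at 0.113 CPM in replicate 2, so that the tumour libraries (0.517 and 0.595) fell between the controls.

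Cxcl12, the stromal ligand of Cxcr4 and Ackr3 that retains stem cells and leukocytes in tissue, was lower in the tumour libraries than in the controls of every experiment and was called in KPC, C26 and KPP. It lies on the plus strand of chromosome 6 (117168535 to 117181367). The 8 control libraries held 47.6 to 67.3 CPM. KPP muscle held 11.9 and 12.6 CPM against 67.3 and 64.8, a fall of 2.43 ± 0.27 on the log2 scale (difference -2.43, adjusted p = 6.2e-05). KPC muscle held 19.7 and 25 CPM against 65.9 and 61.2 (-1.51 ± 0.26, adjusted p = 0.00118), and C26 muscle 44.5 and 22.5 CPM against 58.4 and 56.6 (-0.78 ± 0.25, adjusted p = 0.0416). The KPP and KPC calls held with each of their 4 libraries left out. That of C26 ended without either control or tumour replicate 2 (adjusted p 0.133 to 0.391; -0.36 without the latter), with length-scaled counts (adjusted p = 0.132) and with the C26 libraries fitted alone (adjusted p = 0.109). In LLC (35.7 and 33.9 CPM against 47.6 and 59.1) and KPCML1 (41.9 and 30.6 CPM) the groups did not overlap and the differences of -0.62 ± 0.25 and -0.81 ± 0.25 did not pass the test (adjusted p = 0.126 and 0.0623).

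Cells known as sources of Cxcl12 include fibro-adipogenic progenitors and endothelium. In KPP all 7 endothelial markers were called lower, beside 19.3% of all genes, with Kdr at -3.12 ± 0.52 (adjusted p = 0.000608). Their sum was 100.6 and 108 CPM against 270 and 268. In the other 4 comparisons edgeR called 0 of the 7, the unadjusted p was under 0.05 for 1 to 3 of them, and DESeq2 called 0 or 1. Of 7 fibro-adipogenic markers, 4 were called lower in KPP, 4 in KPC, 2 in LLC and 1 in C26, and 1 was called higher in KPCML1 and 1 in C26. Among all genes, 19.3% were called lower in KPP, 13.7% in KPC, 6.24% in LLC and 9.8% in C26. The shares called higher were 4.15% in KPCML1 and 11.5% in C26, so the C26 counts were near background. The sum of the 7 markers was 319 and 226 CPM in KPP muscle against 526 and 486. In KPC muscle it was 341 and 351 CPM against 398 and 270, where the groups overlapped. In C26 it was 415 and 218 CPM against 403 and 406, with the low value in the library that is also low in Cxcl12. The part of these cells in the level of Cxcl12 was not tested.

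**Figure D4:**
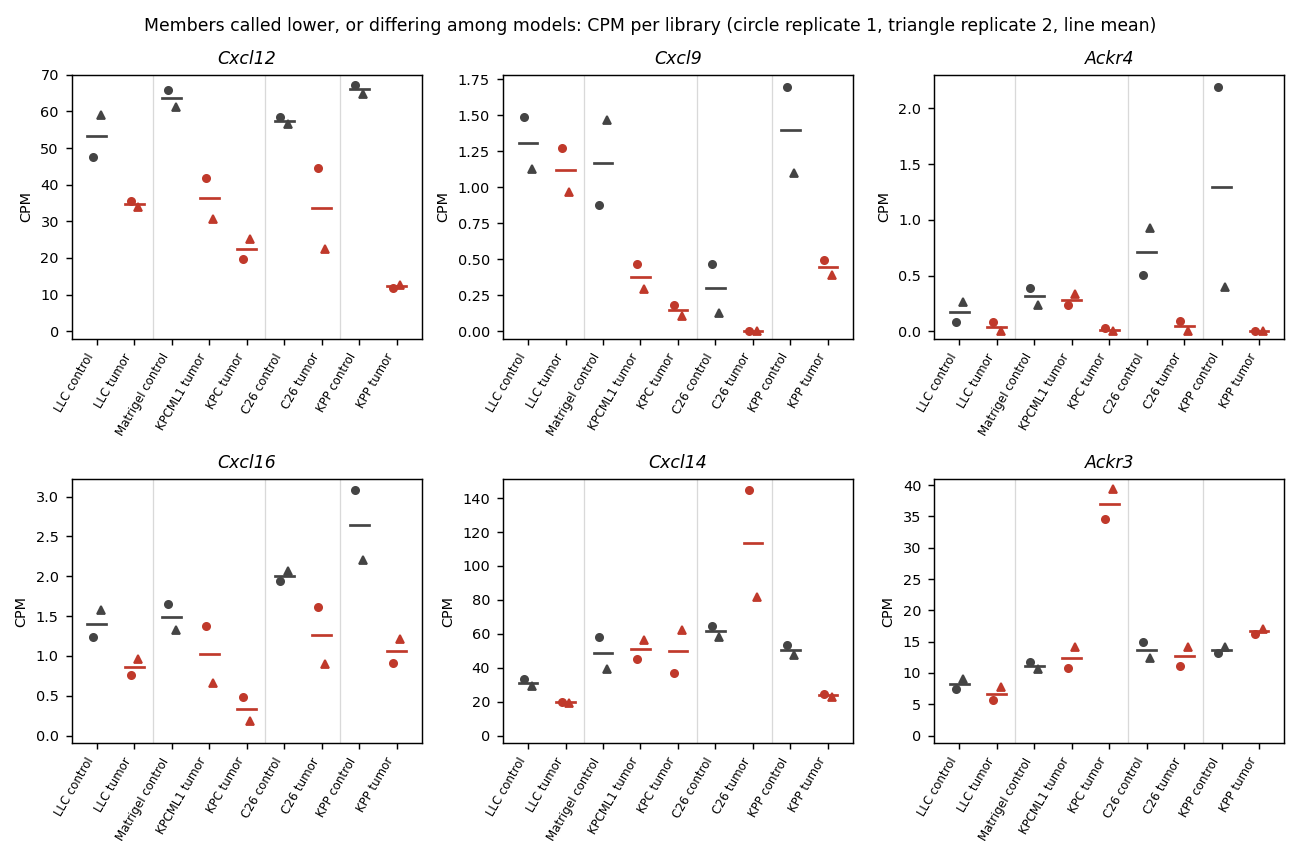
CPM per library of Cxcl12, Cxcl9, Ackr4, Cxcl16, Cxcl14 and Ackr3 by group (circle replicate 1, triangle replicate 2, line the mean of 2). Cxcl12 falls from 67.3 and 64.8 to 11.9 and 12.6 in KPP, and Ackr3 stands at 34.5 and 39.3 in KPC, above every other library.

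Cxcl14, an abundant ligand of skin and stroma, moved in opposite directions in C26 and KPP. In C26 muscle it was at 145 and 81.8 CPM against 64.9 and 58.3 (0.88 ± 0.28, adjusted p = 0.0357). In KPP muscle it was at 24.4 and 22.9 CPM against 53.2 and 47.7 (-1.09 ± 0.28, adjusted p = 0.00801). The C26 call ended without either control or tumour replicate 1 (adjusted p 0.115 to 0.381), where the difference fell as low as 0.38. It also ended with other size factors (relative log expression, adjusted p = 0.0528), with length-scaled counts (0.0531) and with the C26 libraries fitted alone (0.0805). The KPP call ended without control replicate 1 or tumour replicate 2 (adjusted p 0.0508 to 0.0598). In LLC the levels of 20.1 and 19.3 CPM lay below controls at 33.2 and 29.3, with an adjusted p of 0.134.

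Cxcl16, which is made as a membrane protein and shed, fell in KPC from 1.65 and 1.33 CPM to 0.487 and 0.178 (-2.13 ± 0.50, adjusted p = 0.00666) and in KPP from 3.08 and 2.2 CPM to 0.908 and 1.21 (-1.31 ± 0.45, adjusted p = 0.0346). The KPC call ended without KPC tumour replicate 2 (adjusted p = 0.0623). The KPP call ended without control replicate 1 or either tumour library (adjusted p 0.0746 to 0.192) and with length-scaled counts (0.0913). Cxcl16 overlaps Zmynd15 on the opposite strand, a gene called in no comparison.

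Ccl11 and Ccl24, the eotaxins that attract eosinophils, each had 1 call. Ccl11 fell in LLC from 10.7 and 8.53 CPM to 6.16 and 5.17 (-0.76 ± 0.22, adjusted p = 0.0353), a call that ended with any 1 of its 4 libraries left out (adjusted p 0.0575 to 0.266), with length-scaled counts (0.0526) and with no filter on low counts (0.0698). Ccl24 fell in C26 from 1.69 and 1.18 CPM to 0.318 and 0.4 (-1.99 ± 0.62, adjusted p = 0.0352), and this call also ended with any 1 of its 4 libraries left out (adjusted p 0.0765 to 0.171). In KPCML1, Ccl24 was at 1.26 and 1.2 CPM, above the controls at 0.486 and 0.273, with an adjusted p of 0.109.

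Ccl25 and Ccl21a are ligands of lymphoid tissue that Ackr4 scavenges. Ccl25 fell in KPC from 4.38 and 5.05 CPM to 2.62 and 1.63 (-1.14 ± 0.32, adjusted p = 0.0168), a call that ended without Matrigel control replicate 2 or KPC tumour replicate 2 (adjusted p 0.0948 to 0.133) and with length-scaled counts (-0.77, adjusted p = 0.0937). Elavl1, which it overlaps on the opposite strand, was at -0.14 ± 0.15 in KPC. Ccl21a was at 2.27 and 0.909 CPM in KPP muscle against 10.05 and 3.1 (-2.08 ± 0.68, adjusted p = 0.0285). Without KPP control replicate 1, the high library, or without KPP tumour replicate 2 the call ended (adjusted p 0.192 to 0.370), and the smallest of these differences was -0.98. Ccl21a has near-identical copies, such as Ccl21b, so its assignment is uncertain. Lymphatic endothelial markers, known sources of Ccl21a, were called lower for 1 of 4 in KPP, near the 19.3% of all genes called lower there, with a sum of 6.89 and 16.9 CPM against 13.1 and 8.04. Their part in the result was not tested.

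Among the 6 tested signalling receptors 3 were called, each in at most 2 comparisons. Cx3cr1, the receptor of Cx3cl1 on patrolling monocytes and tissue macrophages, was called lower in KPC and KPP. It was at 0.0305 and 0 CPM in KPC against 0.357 and 0.171, 1 fragment against 16 (control over tumour 16.2, exact 95% interval 2.52 to 680; adjusted p = 0.0274). In KPP it was at 0.0413 and 0 CPM against 0.318 and 0.449, 1 fragment against 18 (21.3, interval 3.37 to 889; adjusted p = 0.0126). The intervals cover counting error only. The KPC call ended without Matrigel control replicate 1 or KPC tumour replicate 2 (adjusted p 0.142 to 0.145), under DESeq2 (0.0568) and with its experiment fitted alone (0.0569). The KPP call ended without KPP tumour replicate 2 (adjusted p = 0.100) and with the KPP libraries alone (0.0712). The gene model of Cx3cr1 spans Xirp1, Gorasp1, Csrnp1 and Wdr48, of which Xirp1 and Csrnp1 were called higher in both comparisons. Its ligand Cx3cl1 was called in no comparison (differences from -0.79 to 0.26).

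Ccr1, the receptor of Ccl6 and Ccl9 on myeloid cells, was called higher in KPP, at 0.784 and 2.82 CPM against 0.318 and 0.2 (2.76 ± 0.87, adjusted p = 0.0238). The call ended without either control or tumour replicate 2 (adjusted p 0.0857 to 0.232), and without the latter the difference was 1.62. Cxcr4, the receptor of Cxcl12, fell in KPP from 3.25 and 3.25 CPM to 1.36 and 1.45 (-1.20 ± 0.40, adjusted p = 0.0296), a call that ended with any 1 of the 4 libraries left out (adjusted p 0.0806 to 0.104). Ccr2 and Cxcr2 were called in no comparison with controls. Ccr2 stood at 4.3 and 3.36 CPM in KPCML1 and at 0.396 and 0.782 in KPC, against 2.37 and 0.921 in the shared controls.

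The 4 atypical receptors followed separate courses. Ackr1, which carries chemokines across the wall of venules and is also present on red cells, rose in all models but LLC. It was at 4.24 and 3.4 CPM in KPCML1 (2.17 ± 0.53, adjusted p = 0.025) and 2.44 and 2.63 in KPC (1.57 ± 0.53, adjusted p = 0.0394), against 0.875 and 0.819 in controls. C26 muscle held 4.54 and 3.87 CPM against 1.19 and 1.31 (1.75 ± 0.52, adjusted p = 0.0275). Although the groups did not overlap in these 3 comparisons, each call ended with any 1 of its 4 libraries left out (adjusted p 0.0732 to 0.180). In KPP the values were 1.44 and 7.24 CPM against 1.56 and 1.05 (1.73 ± 0.52, adjusted p = 0.0186). The groups overlapped, and without tumour replicate 2 the difference was 0.20 (adjusted p = 0.705). In LLC the difference was 0.60 ± 0.62 (adjusted p = 0.581).

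Red cell transcripts were also higher in some tumour groups. Of 6 erythroid markers, 5 were called higher in LLC, 6 in KPCML1, 6 in KPC, and 0 in C26 and KPP by edgeR, where the unadjusted p of 0 and 3 genes was under 0.05 and DESeq2 called 0 and 1. Among all genes, 7.39% were called higher in LLC, 4.15% in KPCML1 and 15.3% in KPC. The sum of the erythroid markers was 2254 and 5283 CPM in KPCML1 and 1665 and 1734 in KPC, against 254.7 and 282 in controls. In C26 it was 232 and 124 CPM against 251 and 235, and in LLC, where Ackr1 was not called, 665 and 1886 CPM against 283 and 219. KPP muscle held 2643 and 338 CPM against 301 and 647, with the higher sum in replicate 1 and the higher Ackr1 in replicate 2. Their part in the level of Ackr1 was not tested. Ackr1 overlaps Cadm3 on the same strand, which was called lower in KPP (-2.13 ± 0.46, adjusted p = 0.00291) and was not called elsewhere.

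Ackr3, the scavenging receptor of Cxcl12, rose in KPC and was called in no other comparison with controls. It was at 34.5 and 39.3 CPM there, against 11.8 and 10.6 in the Matrigel controls (1.72 ± 0.21, adjusted p = 0.000175), and the call held whichever of the 4 libraries was left out. In the other 16 libraries it lay between 5.61 and 17 CPM. Ackr4, the scavenger of Ccl19, Ccl21 and Ccl25, fell in C26 and KPP. In KPP muscle no fragment was found, against 2.19 and 0.4 CPM in controls (70 fragments), which is at least 27.7-fold lower with a floor of 3 counts over the group (adjusted p = 0.00242). That bound pools both controls, of which KPP control replicate 1 held 62 fragments and replicate 2 held 8, so its size rests mostly on replicate 1. The call held without replicate 1 and without each of the other 3 libraries, with differences from -8.99 to -6.51 over these fits. In C26 Ackr4 was at 0.0953 and 0 CPM against 0.504 and 0.924, 3 fragments against 43 (control over tumour 14.9, exact 95% interval 4.77 to 75.1, counting error only; adjusted p = 0.0346). That call ended without either control or tumour replicate 2 (adjusted p 0.0681 to 0.227). In KPC it was at 0.0305 and 0 CPM against 0.389 and 0.239, 1 fragment against 19, and did not pass the test (adjusted p = 0.0538). Ackr4 overlaps Acad11 on the opposite strand, which was called in no comparison. Ackr2, which degrades inflammatory CC chemokines, was called in none, with differences from -1.32 to 1.08.

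Other members never called were Ccl19, Ccl22, Ccl27a and Ccl28. Ccl27a, a skin-type ligand, was among the most abundant members, and its differences ran from -0.87 (LLC, adjusted p = 0.0675) to -0.03. Ccl22 had 43 fragments, 12 of them in LLC control replicate 1 and 13 in KPP control replicate 1, and its differences from -3.66 to -1.34 had standard errors up to 2.83. Ccl19 lay between 0.15 and 1.14 CPM and Ccl28 between 0 and 1.7 CPM in all libraries.

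Whether the 5 responses differed was tested jointly (4 degrees of freedom) and in 10 pairs. The joint test called 4 of 33 members (12.1%, against 8.32% of all genes), namely Ackr3 (adjusted p = 0.00443), Cxcl12 (0.0222), Ccl24 (0.0348) and Cxcl14 (0.0369). Ackr3 kept its call in all 18 fits that left out 1 library. Cxcl12 ended without LLC control replicate 1 or KPP control replicate 1 (adjusted p 0.0564 to 0.0565), Ccl24 ended in 8 of 18 cases and Cxcl14 in 14. For Ackr3 the pairs called all held KPC, where the response was higher: KPCML1 minus KPC was -1.58 ± 0.21 (adjusted p = 0.0039), KPC minus C26 was 1.84 ± 0.29 (adjusted p = 0.0174) and LLC minus KPC was -2.03 ± 0.30 (adjusted p = 0.00649). The pair of KPC and KPP was not called (adjusted p = 0.0697). For Cxcl12 the fall in KPP was deeper than the change in LLC by 1.81 ± 0.36 (adjusted p = 0.013), in KPCML1 by 1.62 ± 0.36 (adjusted p = 0.0347) and in C26 by 1.65 ± 0.36 (adjusted p = 0.0477). Its pair of KPC and KPP was not called (0.92 ± 0.36, adjusted p = 0.238). The responses of Cxcl14 in C26 and KPP differed by 1.98 ± 0.39 (adjusted p = 0.0359), and that of Cx3cr1 was higher in LLC than in KPP by 4.97 ± 1.40 (adjusted p = 0.0436). The KPP tumour libraries held 1 fragment of Cx3cr1, so the size of that difference is unreliable, and the joint test did not call the gene (adjusted p = 0.0517). The 10 pairs were tested only in the fit of all 18 libraries, with no library left out and under no other setting.

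KPCML1 and KPC share controls, so their pair compares the tumour libraries themselves, and 3 members were called in it (9.09% of 33, against 5.99% of all genes). Ccl24 was higher in KPCML1 by 2.65 ± 0.67 (adjusted p = 0.0343) and Ccr2 by 2.71 ± 0.63 (adjusted p = 0.0248), and Ackr3 was higher in KPC. Cell line and number of cells differ between these groups and cannot be told apart. Beside the other pairs' calls, the share of all genes was 1.08% for C26 against KPP, 3.47% for KPCML1 against KPP, 0.87% for KPC against C26, 1.84% for LLC against KPC and 8.29% for LLC against KPP. Cxcl13, called in all 5 comparisons, was called in no pair.

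Genes that feed the chemokine system were read from lists of known function. Of 19 genes of NF-kB input, the pathway that drives many inflammatory ligands, 8 were called higher in LLC, 2 in KPCML1, 8 in KPC, 11 in C26 and 7 in KPP, and 1 was called lower, in KPP. The shares of all genes called higher were 7.39% in LLC, 4.15% in KPCML1, 15.3% in KPC, 11.5% in C26 and 17.4% in KPP. In the list, Nfkb2, a subunit of the non-canonical arm, rose by 3.86 ± 0.29 in LLC and 2.82 ± 0.28 in C26. Nfkbia, the inhibitor that NF-kB induces, rose by 1.72 ± 0.25 in KPC. Eda2r, a receptor that signals to this pathway, was called higher in all 5, from 1.33 ± 0.36 in KPCML1 to 3.42 ± 0.39 in LLC. The summed level was 514 and 594 CPM in LLC muscle against 210 and 219, the widest gap of the 5 experiments.

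Of 15 genes of interferon input, 7 were called lower in KPC and 6 in KPP, with 0 called higher in either. Among all genes, 13.7% were called lower in KPC and 19.3% in KPP. Irf1, which induces Cxcl9 and Cxcl10, fell by 1.64 ± 0.28 in KPC (difference -1.64, adjusted p = 0.00108) and was at -0.97 ± 0.26 in KPP (adjusted p = 0.0112). LLC and KPCML1 each had 1 gene called higher, Ifngr1, and 1 called lower, Socs1, and C26 had 1 called higher, Irf3. These single calls were near or below the shares of all genes called in the same direction (4.15% to 11.5%). Cxcl10 was called higher in KPP, where Irf1 was called lower.

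**Figure D5:**
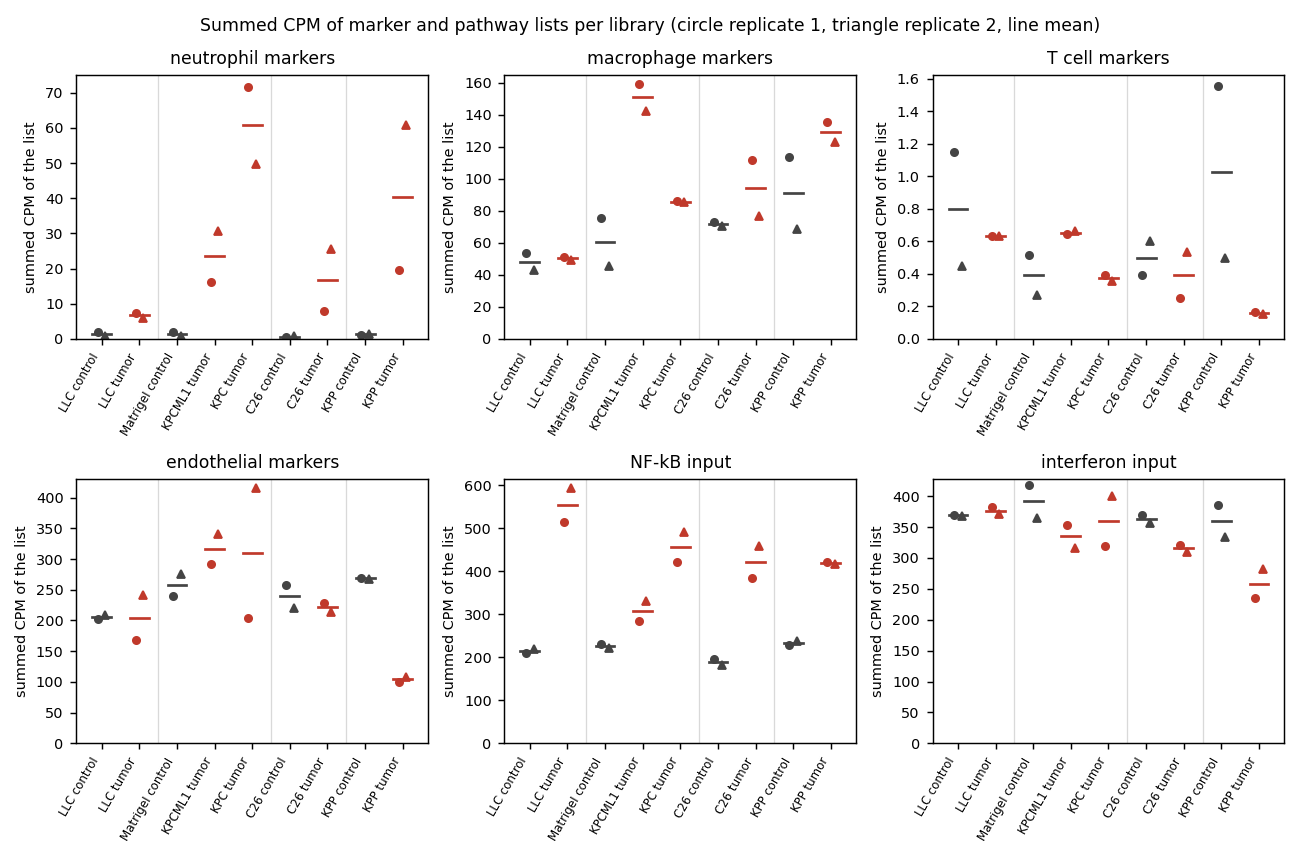
Summed CPM per library of 4 marker lists and of the NF-kB and interferon input lists by group (circle replicate 1, triangle replicate 2, line the mean of 2). Neutrophil markers are above their controls in all tumour libraries, endothelial markers drop in KPP to 100.6 and 108, and T cell markers stay at or below 1.56 in every library.

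Of 18 tested genes of receptor signalling, 5 were called lower in KPP and 1 in KPC, beside 19.3% and 13.7% of all genes called lower there. Arrb1, an arrestin that ends receptor signals, was at -1.37 ± 0.24 in KPP (adjusted p = 0.00084) and -0.997 ± 0.24 in KPC (adjusted p = 0.00762). LLC had 0 called by edgeR (1 at an unadjusted p under 0.05, 0 by DESeq2), KPCML1 1 called higher (Pik3cg), and C26 2 higher and 1 lower. The Pik3cg call did not hold in every fit with a library left out. Of 14 genes of presentation and processing, which make the heparan sulfate that holds chemokines and the proteases that cut them, 8 were called lower and 1 higher in KPP, 5 lower and 2 higher in KPC, and 4 lower and 2 higher in C26. LLC had 1 in each direction and KPCML1 0 (4 at an unadjusted p under 0.05, 1 by DESeq2). Adam17, a sheddase of membrane chemokines, was at -1.25 ± 0.19 in KPC and -0.999 ± 0.19 in KPP, and the syndecan gene Sdc3 at -1.62 ± 0.24 in KPP. Of 10 chemokine-like genes with other symbols, 1 was called higher in LLC, 2 in KPCML1, 1 in KPC and 2 in C26, and 2 were called lower in KPC and 3 in KPP. Gpr182, an endothelial scavenger of chemokines, was called higher in LLC (1.91 ± 0.46), KPCML1 (2.21 ± 0.40) and C26 (2.07 ± 0.41). In KPC, Cklf (-1.87 ± 0.45) and Pitpnm3 (-1.75 ± 0.49) were called lower and the platelet ligand Ppbp (2.42 ± 0.78, adjusted p = 0.0331) higher. In KPP, Cd74, a receptor of MIF (-2.70 ± 0.64), Cmklr1, the chemerin receptor (-1.70 ± 0.50), and Pitpnm3 (-1.34 ± 0.49) were called lower. The platelet ligand Pf4 was called higher in KPCML1 (1.37 ± 0.38, adjusted p = 0.0425) and Rarres2, which encodes chemerin, in C26 (0.92 ± 0.30, adjusted p = 0.0400). The calls of Ppbp, Pf4 and Rarres2 ended with any library of their comparison left out. Of the calls of these chemokine-like genes, only that of Gpr182 in C26 held whichever library was left out. Called in either direction were 13.6% of all genes in LLC, 8.53% in KPCML1, 29.1% in KPC, 21.3% in C26 and 36.7% in KPP. Receptor signalling lay below that share in every comparison. The chemokine-like genes lay near or below it except in KPCML1. Presentation and processing lay above it in KPC, C26 and KPP, near it in LLC and below it in KPCML1.

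The authors' deposited tables gave an adjusted p under 0.05 to fewer members in KPC, C26 and KPP, and to more in LLC and KPCML1. In the authors' deposited table for LLC 5 of 16 members with an adjusted p passed, among them Cxcl10 and Ccl11, while Cxcl13 had none. The others that passed there by DESeq2 were not called here in LLC. They were Cxcl12 (log2 fold change -0.71, adjusted p = 0.00155), Cxcl14 (-0.70, adjusted p = 0.00398) and Ccl27a (-0.91, adjusted p = 0.0334). In the authors' deposited table for KPC 9 of 26 passed, of which 8 are among the 10 called here. In the authors' deposited table for C26 5 of 31 passed, all among the 9 called here, and in that for KPP 10 of 29, with 9 among the 15. The authors' deposited table of the other orthotopic group passed 7 of 26, including all 4 called here for KPCML1 and also Cxcl9, Cxcl12 and Ccl24. The name of that table gives another number of cells than the label of the libraries, and its log2 fold changes correlated at 0.903 over 13751 genes with those of KPCML1 here.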

How the data were processed

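Poly(A) RNA of TA muscle was sequenced as pairs on a NovaSeq instrument from directional libraries, per the labels' protocols. Reads were demultiplexed with bcl2fastq (2.20) and quantified with Salmon on mm10, per the submitters' processing notes. Which release of Salmon and of the transcripts was used, and how strand was set, was not given in the sources used here. Every deposited file of a library holds Salmon's estimated counts per transcript, which are not normalised, and TPM, which Salmon scales within a library by length. The authors also deposited 5 DESeq2 tables with log2 fold changes and p-values.

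Estimated counts were summed per gene by GENCODE M21 identifiers and rounded. Of 140825 transcripts 944 did not match (0.416 to 0.693% of a library's fragments). filterByExpr of edgeR (4.0.16, R 4.3.3) kept 16089 of 29433 genes, and members it left out were called too low to judge. Libraries were scaled by TMM (factors 0.83 to 1.32) and fitted in 1 quasi-likelihood model of 9 groups (9 residual degrees of freedom), with Benjamini-Hochberg adjustment over all tested genes. TPM served only for levels between genes and, with effective lengths, for length-scaled counts. Against a group with 0 fragments a fold is a bound at 3 counts over the group, and with 1 to 3 fragments a ratio has an exact 95% interval. The code was tested on simulated data.

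The members and lists were chosen with earlier results of these data known. Per-library values are given for members called, others by range, and up to 4 called genes of smallest adjusted p of a list could be named. The members printed with a promoter were the 4 called in most comparisons, ties by smallest adjusted p, and Cxcl10 and Cxcl9, chosen after their values were seen. Other settings tried were DESeq2 (1.42.0), relative log expression size factors, length-scaled counts, no filter, a replicate block, each experiment alone and leaving out each library. Nothing says that equal replicate numbers mark a shared batch. P-values rest on the spread between the 2 libraries of each group, pooled over the 9 groups and moderated across genes. A few results that these rules would name are not reported here.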

Additional observations from a re-analysis of the deposited data

Results flagged for a closer look

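For 4 members the responses of the 5 models differed by the joint test (edgeR, p adjusted by Benjamini and Hochberg). Ackr3 had an adjusted p of 0.00443, with 34.5 and 39.3 CPM in KPC muscle and 5.61 to 17 CPM in the other 16 libraries. Cxcl12 had an adjusted p of 0.0222, with its lowest values, 11.9 and 12.6 CPM, in KPP muscle. Ccl24 had an adjusted p of 0.0348 and was at 1.26 and 1.2 CPM in KPCML1 muscle and at 0.305 and 0.071 in KPC. Cxcl14 had an adjusted p of 0.0369, with 145 and 81.8 CPM in C26 muscle and 24.4 and 22.9 in KPP. With 2 libraries a group, no library could be tested as an outlier.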

How the results depend on the processing

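The 3 members called in LLC became 8 with its libraries fitted alone, where all genes called went from 2193 to 3859. The 4 in KPCML1 became 8 with no filter on low counts. The 15 in KPP became 8 with its libraries alone. The 4 that differed among models became 10 under DESeq2 and 15 with no filter. With the replicate block, the members called were 2 in LLC, 3 in KPCML1, 9 in KPC, 5 in C26, 11 in KPP and 1 among models, beside 3, 4, 10, 9, 15 and 4 without it. Same-numbered libraries deviated together by a correlation of 0.0095 in LLC, 0.093 in KPCML1, -0.052 in KPC, -0.075 in C26 and -0.174 in KPP. These values gave no sign of pairing by number, but with 2 pairs they cannot exclude a shared batch. A crossed block in KPP, chosen after seeing the data, gave 17. Leaving out 1 library gave 1 to 2 members in LLC, 1 to 2 in KPCML1, 5 to 9 in KPC, 2 to 5 in C26, 3 to 13 in KPP and 1 to 7 among models. The direction of 1 called gene turned: Cxcl9 in KPP was 0.22 with length-scaled counts. Of the other values of single genes, 246 kept their side of the threshold and 34 did not, and 130 and 106 with a library left out. The causes were not tested. Calls kept with each library left out were 1 of 3 in LLC, 1 of 4 in KPCML1, 4 of 10 in KPC, 2 of 9 in C26, 3 of 15 in KPP and 1 of 4 among models. Depth left 26 members untested and Cxcl2, Cxcl9, Ackr4 and Cx3cr1 with few fragments.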
